A study of Mus musculus with 10 samples.

Results

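Desert hedgehog and platelet-derived growth factor (PDGF) signals pass between the somatic cells of the testis. The genes described here are 5 of the hedgehog pathway (Dhh, Ptch1, Smo, Gli1 and Hhip) and 4 of the PDGF system (Pdgfa, Pdgfb, Pdgfra and Pdgfrb). They were chosen by name, and each was taken from the array through probe sets annotated to that gene alone. They had 17 of the 22690 probe sets on the array, 9 for the hedgehog genes and 8 for the PDGF genes. The filter on dim probe sets kept 14 of the 17, with at least 1 for each of the 9 genes, so all 9 were tested.

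RNA was measured from whole testes of 10 day old SCARKO mice, in which androgen action is removed selectively from Sertoli cells, and of control mice of the same age, which were AMHCre mice. AMHCre expresses Cre recombinase from the promoter of AMH, the anti-Müllerian hormone gene, which is active in Sertoli cells, the cells that nurse the germ cells inside the tubule. There were 5 arrays for SCARKO and 5 for control, each from 1 pool of RNA that combined 1 testis from each of 3 mice. Numbers in the titles put the pools into 5 pairs, and the protocol, which is given for pairs 1 to 4, says that the pools were of littermates. The labels give no further allele, and a pool of whole testes mixes every cell type of the organ. The signal of a gene therefore cannot tell fewer cells of a type from less RNA per cell.

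In the testis, Sertoli cells secrete desert hedgehog. It binds Patched 1 (Ptch1) on Leydig cell precursors and peritubular myoid cells, which lifts the block that Patched places on Smoothened (Smo) and lets GLI transcription factors act. Ptch1, Gli1 and Hhip are themselves transcribed in response to the pathway, and the Ptch1 and Hhip proteins restrain it by binding the ligand. PDGF-A, a ligand made in the tubule, acts on the receptor PDGFRA of interstitial cells and is needed in mice for adult Leydig cells, while PDGF-B from endothelium acts on PDGFRB of pericytes.

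Arrays shared 1 scale, with medians between 36.8 and 37.6 in SCARKO and between 36.4 and 37.0 in control. A sign of RNA integrity, the 3′ signal over the 5′ signal of Gapdh, was 0.618 to 0.657 in SCARKO and 0.611 to 0.64 in control. Markers of the expected cells were present: the filter kept all 13 Sertoli, 8 germ cell and 8 Leydig markers that had a probe set, and 10 of 11 myoid markers. It kept 7 of 10 endothelial and 4 of 6 pericyte markers. Titles and descriptions named opposite genotypes on the 8 arrays of pairs 1 to 4, and did not conflict in pair 5. Groups follow the titles, so every direction rests on them, and the ratio within pair 5 is given beside the main results.

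Promoter windows, 250 bases before to 50 bases after the annotated start, were read for 6 of the 9 genes from RefSeq (mouse build GRCm38.p6). Those of 4 hedgehog genes are shown: Smo because it was the gene that passed the test, Dhh as the ligand, and Ptch1 and Hhip as pathway targets with lower estimates. Capitals mark the GLI core GGGTGG and the GC box GGGCGG, searched on both strands (CCACCC and CCGCCC are their complements). No match of one overlapped a match of the other in any of the windows.
Dhh: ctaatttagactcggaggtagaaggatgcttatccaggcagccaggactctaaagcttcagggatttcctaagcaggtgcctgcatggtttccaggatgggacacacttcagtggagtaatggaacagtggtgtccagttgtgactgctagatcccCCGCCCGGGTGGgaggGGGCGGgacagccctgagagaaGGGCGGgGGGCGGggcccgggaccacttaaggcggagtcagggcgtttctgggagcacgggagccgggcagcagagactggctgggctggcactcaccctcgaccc
Smo: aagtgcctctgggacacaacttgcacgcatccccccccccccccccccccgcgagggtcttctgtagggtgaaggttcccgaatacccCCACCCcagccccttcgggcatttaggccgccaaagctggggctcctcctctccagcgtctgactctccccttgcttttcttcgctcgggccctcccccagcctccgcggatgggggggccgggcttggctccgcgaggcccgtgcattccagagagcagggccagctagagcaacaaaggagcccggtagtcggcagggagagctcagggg
Ptch1: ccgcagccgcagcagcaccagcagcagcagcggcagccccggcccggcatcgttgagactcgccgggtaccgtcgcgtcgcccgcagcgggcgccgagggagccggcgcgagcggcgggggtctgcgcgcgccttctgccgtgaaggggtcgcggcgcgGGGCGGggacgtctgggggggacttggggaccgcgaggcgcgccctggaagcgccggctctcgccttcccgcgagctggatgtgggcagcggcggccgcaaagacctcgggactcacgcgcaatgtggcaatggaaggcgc
Hhip: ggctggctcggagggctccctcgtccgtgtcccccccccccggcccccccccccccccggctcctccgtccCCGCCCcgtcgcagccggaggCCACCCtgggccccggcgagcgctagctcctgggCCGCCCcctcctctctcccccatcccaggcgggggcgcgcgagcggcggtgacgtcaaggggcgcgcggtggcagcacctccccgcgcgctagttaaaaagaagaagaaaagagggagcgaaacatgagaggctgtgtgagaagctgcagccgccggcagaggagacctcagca

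The Dhh window (chr15:98898491-98898790, minus strand) held 4 GC boxes and 1 GLI core, and 61.7% of its bases were G or C. That of Smo (chr6:29735247-29735546, plus strand) held 1 GLI core and no GC box, that of Ptch1 (chr13:63565686-63565985, minus strand) 1 GC box and no GLI core, and that of Hhip (chr8:80057959-80058258, minus strand) 2 GC boxes and 1 GLI core. Across all 32851 promoter windows of the table, 35.7% held a GC box and 31.5% a GLI core, so both are common. Of the 6 genes read, 5 held a GLI core and 4 a GC box. Windows of Gli1 and Pdgfb were not available, and Pdgfrb was left out, so these counts do not cover them. The longer GLI site TGGGTGGTC, found in 0.253% of all windows, was in none of the 7 windows of the 6 genes, nor was the steroid receptor half-site AGAACA, found in 19.0%. A match describes letters only, and its absence says nothing of binding.

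Of the 9 genes, 1 differed between SCARKO and control testes at an adjusted p under 0.05 (limma, adjusted over all 13576 kept probe sets). This was Smo, which rose by 17.0%. None fell, against 3.52% of all genes. Across the array 454 of 7973 genes passed (5.69%), 173 of them higher in SCARKO (2.17%), each gene read by its brightest kept probe set (5.19% of all kept probe sets passed). All 9 estimates were small, with no log2 fold change beyond 0.33 in size and a median of 0.02, against 0.015 over all genes. At an unadjusted p under 0.05 there were 5 of the 9 (Smo, Pdgfa and Pdgfb higher, Ptch1 and Hhip lower in SCARKO), against 21.7% of all genes, and 4 of these 5 did not hold after adjustment.

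**Figure D1:**
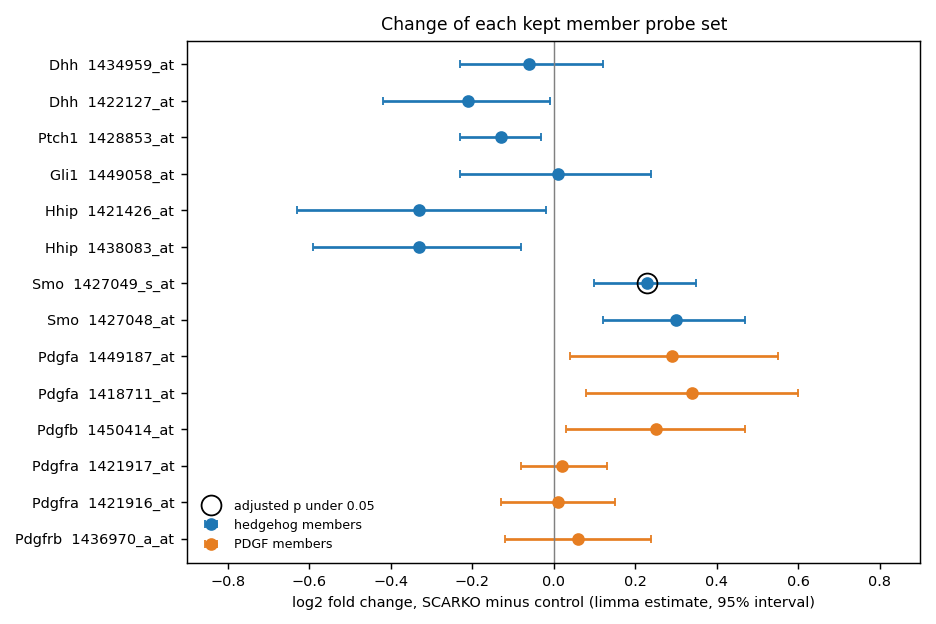
Log2 fold change, SCARKO minus control, of the 14 kept probe sets of the hedgehog genes (blue) and the PDGF genes (orange). Points are limma estimates, bars their 95% intervals, and the ring marks the 1 probe set with an adjusted p under 0.05, the brighter one of Smo at 0.23.

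Among the hedgehog genes the ligand came first. Dhh (gene ID 13363) is read by 2 probe sets. The brighter one (1434959_at) had signals of 426.5, 374.6, 374.6, 313.6 and 329.9 in SCARKO pools 1 to 5, against 507.6, 288.9, 390.9, 372.9 and 354.7 in control pools 1 to 5. The groups overlapped over most of their range, and the highest and the lowest signal both belonged to control pools. Means were 364 ± 44.3 in SCARKO and 383 ± 79.6 in control (SD, n = 5 each), a log2 fold change of -0.06 (95% interval -0.23 to 0.12, limma adjusted p = 0.73). In percent, the interval ran from -14.9% to 8.36%. The SCARKO pool was lower in 4 of 5 pairs, with pair 2 the exception at a log2 ratio of 0.37. Without pair 2 the estimate was -0.17 (limma adjusted p = 0.10), and without pair 1, 3, 4 or 5 it was -0.06 to -0.01. The dimmer probe set (1422127_at) read 76.6, 72.7, 66.4, 54.0 and 90.6 in SCARKO pools, against 86.4, 70.1, 94.3, 73.9 and 89.7 in control pools. Its estimate was -0.21 (SE 0.09, limma adjusted p = 0.22), with 3 of 5 pairs lower. Neither probe set passed, and their intervals, -0.23 to 0.12 and -0.42 to -0.01, overlapped. The log2 ratios within pair 5 were -0.10 on the brighter and 0.01 on the dimmer one.

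Ptch1 (gene ID 19206), the receptor of Dhh and a target of the pathway, had signals of 458.6, 444.1, 422.9, 409.4 and 460.3 in SCARKO pools, against 520.7, 443.4, 470.5, 478.1 and 483.6 in control pools. SCARKO pools were the lower ones in 4 of 5 pairs, and the groups overlapped because control pool 2 lay below 3 SCARKO pools. Means were 439 ± 22.4 in SCARKO and 479 ± 27.8 in control (SD, n = 5 each), a log2 fold change of -0.13 (95% interval -0.23 to -0.03) that did not pass at a limma adjusted p of 0.14. Within pair 5 the log2 ratio was -0.07. A second Ptch1 probe set (1450824_at) was too dim to be kept, at 10.9 to 23.7 in SCARKO and 13.8 to 21.9 in control. Without the filter its estimate was -0.07.

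Smo (gene ID 319757), the transducer that Patched holds in check, was higher in SCARKO in all 5 pairs on both of its probe sets, while 19.7% of all genes had 1 direction in all pairs. The brighter one (1427049_s_at) read 148.5, 147.0, 144.1, 144.0 and 167.0 in SCARKO pools, against 139.0, 121.1, 122.8, 122.8 and 135.8 in control pools. Every SCARKO pool lay above every control pool, which held for 5.26% of all genes in either direction and 2.47% in this one. Means were 150 ± 9.63 in SCARKO and 128 ± 8.41 in control (SD, n = 5 each), a log2 fold change of 0.23 (SE 0.06, limma adjusted p = 0.045). This is 17.0% higher in SCARKO, with a 95% interval of 7.26% to 27.7%. A suffix _s_at marks probes that can match more than 1 transcript, so other transcripts may add to this signal.

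The dimmer Smo probe set (1427048_at), without that suffix, read 125.9, 127.8, 122.1, 137.1 and 137.5 in SCARKO pools, against 115.1, 93.3, 81.3, 119.2 and 127.1 in control pools. SCARKO signals were tightly grouped and control signals spread widely, and only control pool 5 reached into the SCARKO range. Its estimate, 0.30 (SE 0.08), was larger than that of the first, and it did not pass at a limma adjusted p of 0.056, though it did with the lowest 60% of probe sets left out (0.046). Within pair 5, the log2 ratios were 0.30 and 0.11 for the brighter and the dimmer probe set. The call of the brighter one stood close to the threshold. It ended when any 1 of the 5 pairs was left out (limma adjusted p between 0.059 and 0.16, estimates 0.21 to 0.26), without the pair block (0.096), without the filter (0.094) and without the intensity trend (0.079).

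**Figure D2:**
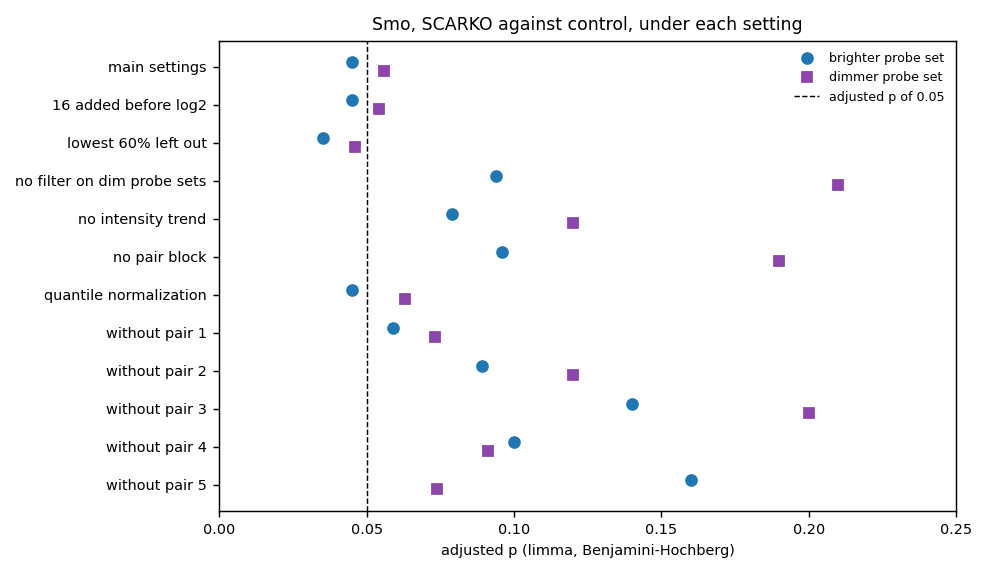
Limma adjusted p of both Smo probe sets (brighter, circles; dimmer, squares) under the main settings and 11 alternatives, with the threshold of 0.05 as a dashed line. The brighter probe set lies under the line with the main settings, with 16 added before log2, with the lowest 60% left out and after quantile normalization, and above it in the other 8, while the dimmer one lies under it only with the lowest 60% left out.

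The remaining hedgehog targets gave unlike estimates. Gli1 (gene ID 14632), a transcription factor and the usual readout of the pathway, read 27.2, 27.8, 30.2, 22.7 and 32.5 in SCARKO pools, against 28.3, 28.4, 25.1, 25.6 and 32.0 in control pools. The groups lay on top of each other, with the highest and the lowest signal both in SCARKO. Means were 28.1 ± 3.67 in SCARKO and 27.9 ± 2.75 in control (SD, n = 5 each), a log2 fold change of 0.01 (95% interval -0.23 to 0.24, limma adjusted p = 0.98). The signal was close to 19.3, the level under which probe sets were left out, and the interval, from -14.9% to 18.4%, does not show that Gli1 was unchanged. Its sign turned after quantile normalization (-0.01) and without pair 3 (-0.06).

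Hhip (gene ID 15245), which binds hedgehog ligands at the cell surface, had the largest negative estimates of the 9 genes, and both probe sets gave -0.33. The brighter one (1421426_at) read 31.2, 24.8, 35.3, 22.4 and 43.1 in SCARKO pools, against 48.8, 33.8, 33.1, 36.6 and 40.8 in control pools. The groups overlapped, and 3 of 5 pairs were lower. The dimmer one (1438083_at) read 24.3, 26.8, 28.2, 23.6 and 32.7 in SCARKO pools, against 33.4, 34.9, 29.7, 36.9 and 35.2 in control pools. All 5 pairs were lower on it, and only SCARKO pool 5 and control pool 3 crossed. Limma adjusted p was 0.20 (SE 0.14) and 0.13 (SE 0.12), so neither passed. The 95% intervals ran from -35.2% to -1.69% and from -33.4% to -5.39%. Within pair 5 the log2 ratios were 0.08 and -0.11. With 16 added before log2, which shrinks changes of dim signals, both estimates were -0.22.

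**Figure D3:**
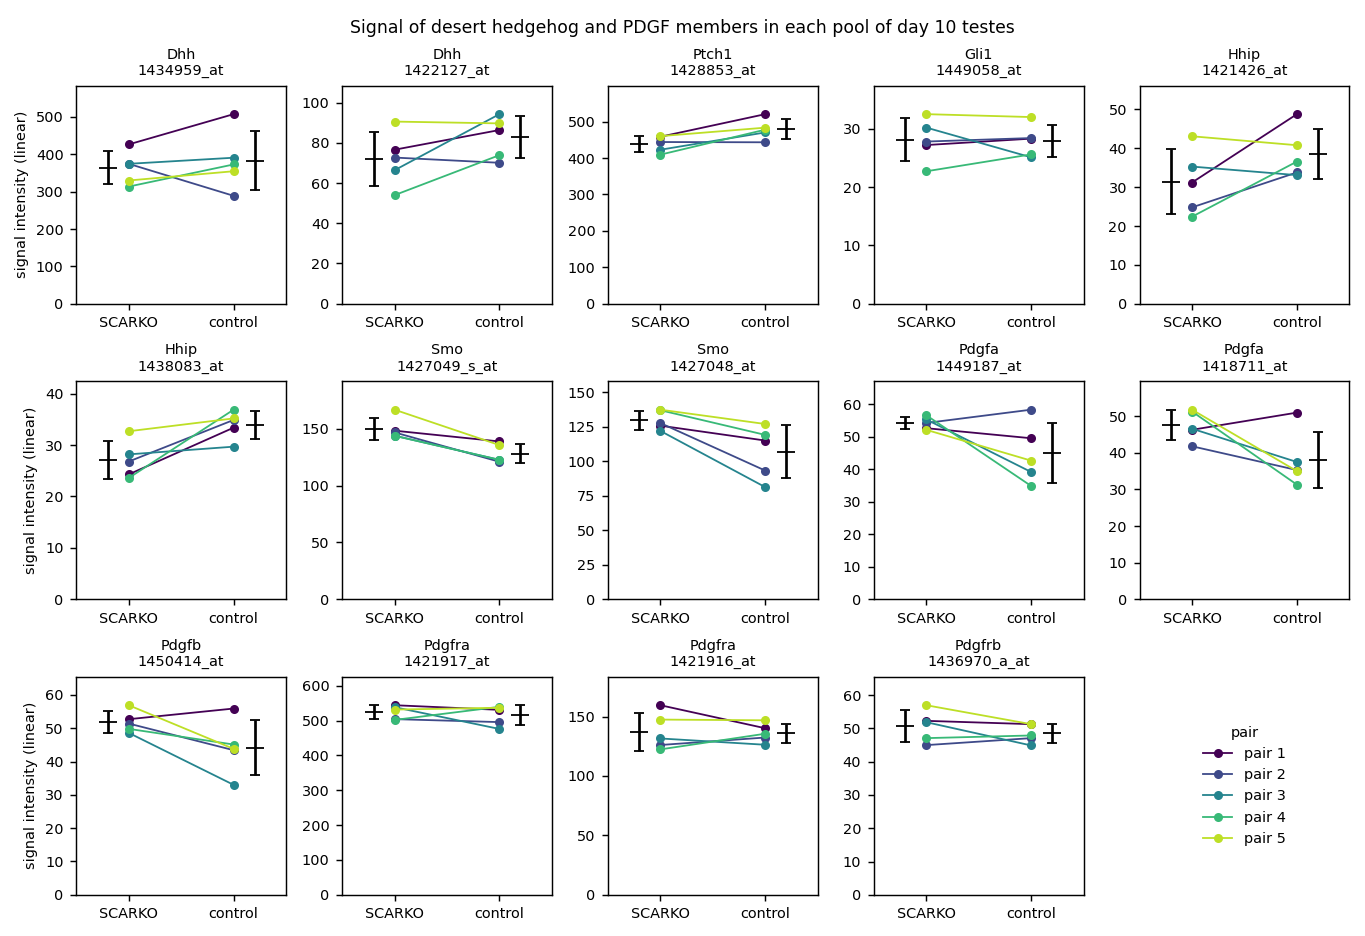
Signal intensity (linear scale from 0) of the 14 kept probe sets in each pool, with SCARKO at left and control at right of each panel and a line joining the pools of a pair. Bars at the sides give mean ± SD of 5 pools. The brighter Smo probe set is the 1 panel in which SCARKO pools (144.0 to 167.0) and control pools (121.1 to 139.0) do not overlap.

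Of the PDGF genes, the ligands had higher estimates in SCARKO and the receptors had estimates near 0, and none passed. Pdgfa (gene ID 18590), the ligand of PDGFRA, is read by 2 probe sets. The brighter one (1449187_at) read 52.7, 54.3, 55.4, 56.7 and 52.2 in SCARKO pools, against 49.6, 58.4, 39.2, 34.9 and 42.7 in control pools. SCARKO pools lay within a narrow range of 52.2 to 56.7, while control pools ran from 34.9 to 58.4 and so both below and above them. Means were 54.3 ± 1.87 in SCARKO and 45.0 ± 9.24 in control (SD, n = 5 each), a log2 fold change of 0.29 (SE 0.11, limma adjusted p = 0.17). The dimmer one (1418711_at) read 46.3, 41.8, 46.6, 51.3 and 51.8 in SCARKO pools, against 51.0, 35.3, 37.5, 31.3 and 35.0 in control pools, and its estimate was 0.34 (SE 0.12, limma adjusted p = 0.13). Each probe set was higher in 4 of 5 pairs, but the exception was pair 2 on the brighter and pair 1 on the dimmer one. Their 95% intervals, 0.04 to 0.55 and 0.08 to 0.60, did not include 0, and the log2 ratios within pair 5 were 0.29 and 0.57.

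Pdgfb (gene ID 18591), the ligand of PDGFRB, had 1 kept probe set (1450414_at), which read 52.7, 51.4, 48.6, 49.8 and 56.9 in SCARKO pools, against 55.9, 43.4, 33.0, 45.1 and 43.8 in control pools. SCARKO pools were higher in 4 of 5 pairs and stood above all control pools except pool 1, which exceeded 4 of them. Means were 51.9 ± 3.21 in SCARKO and 44.2 ± 8.12 in control (SD, n = 5 each), a log2 fold change of 0.25 (SE 0.10, limma adjusted p = 0.19), with a log2 ratio of 0.38 within pair 5. The other probe set (1450413_at) was left out as dim, at 9.9 to 17.1 in SCARKO and 11.3 to 16.9 in control, and its estimate without the filter was -0.06, with an interval of -0.57 to 0.45. In pair 1, the PDGF ligand estimates were small or negative, with log2 ratios of 0.09 and -0.14 for Pdgfa and -0.09 for Pdgfb.

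The receptor Pdgfra (gene ID 18595), found on interstitial mesenchyme and Leydig cell precursors, read 544.4, 504.4, 538.8, 502.1 and 531.9 on its brighter probe set (1421917_at) in SCARKO pools, against 531.1, 495.9, 476.2, 539.8 and 537.1 in control pools. The groups overlapped throughout. Means were 524 ± 19.8 in SCARKO and 516 ± 28.4 in control (SD, n = 5 each), a log2 fold change of 0.02 (limma adjusted p = 0.82). The 95% interval, from -5.24% to 9.09%, was the narrowest among the PDGF genes. The dimmer probe set (1421916_at), at 122.4 to 159.6 in SCARKO and 126.3 to 146.9 in control, gave 0.01 with an interval of -0.13 to 0.15. Both estimates changed sign when single pairs were left out.

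Pdgfrb (gene ID 18596), the receptor of pericytes and smooth muscle, read 52.3, 45.0, 51.9, 47.1 and 57.0 in SCARKO pools on its kept probe set (1436970_a_at), against 51.3, 47.1, 44.9, 47.9 and 51.3 in control pools. The groups overlapped, and 3 of 5 pairs were higher. Means were 50.7 ± 4.72 in SCARKO and 48.5 ± 2.78 in control (SD, n = 5 each), a log2 fold change of 0.06 (95% interval -0.12 to 0.24, limma adjusted p = 0.73). The second probe set (1417148_at) was left out as dim, with 7.5 to 24.0 in SCARKO and 8.5 to 13.9 in control.

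Other hedgehog pathway genes did not pass either. Of 37 listed, 26 had a probe set of their own and 20 were kept. Limma called 0 of these 20 (5.69% over all genes), with 3 at an unadjusted p under 0.05 (21.7% over all genes). Their median log2 fold change was 0.02, with 11 above 0 and 9 below. Gas1, a cell surface co-receptor for hedgehog ligands, averaged 217 ± 27.3 in SCARKO and 190 ± 25.1 in control (SD, n = 5 each), a log2 fold change of 0.19 (limma adjusted p = 0.19), and its other kept probe set gave 0.13. Ift88, needed to build the primary cilium in which Smo acts, averaged 47.8 ± 4.02 in SCARKO and 55.8 ± 6.85 in control and was lower in all 5 pairs (-0.22, limma adjusted p = 0.14). Arrb2, a beta-arrestin, gave 0.15 (limma adjusted p = 0.19) and Spop, an adaptor for the turnover of GLI proteins, gave 0.11 (limma adjusted p = 0.24), with 0.15 and 0.06 on their other kept probe sets. Gli2 had an estimate of 0.19 (limma adjusted p = 0.40), while the filter left out Gli3 and the ligand genes Shh and Ihh as dim.

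Of 46 other genes of the PDGF system, 37 had a probe set of their own and 34 were kept. Among them 2 fell, none rose and 32 did not pass, against 5.69% of all genes called in either direction and 3.52% called lower. At an unadjusted limma p under 0.05 there were 5 of the 34, against 21.7% of all genes. The median log2 fold change was -0.01. Plat (gene ID 18791), tissue plasminogen activator, a protease that activates PDGF-C, read 119.5, 139.4, 146.9, 115.4 and 109.5 in SCARKO pools, against 197.9, 188.7, 248.0, 207.9 and 223.3 in control pools. Every SCARKO pool lay below every control pool, and the log2 fold change was -0.76 (SE 0.08, limma adjusted p = 0.00041). Sos2 (gene ID 20663), an exchange factor that passes receptor signals to Ras, read 119.4, 127.7, 127.1, 140.3 and 133.6 in SCARKO pools, against 149.8, 151.0, 175.5, 167.6 and 176.5 in control pools. Its groups did not overlap either, which held for 5.26% of all genes in either direction. The log2 fold change of Sos2 was -0.34 (SE 0.06, limma adjusted p = 0.0071). Both calls held when any 1 pair was left out, with limma adjusted p of at most 0.0034 for Plat and 0.041 for Sos2, and ended without the filter (0.054 and 0.066).

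Pdgfc, the ligand that Plat activates, had a higher estimate in SCARKO in 4 of 5 pairs. It read 141.0, 168.2, 164.7, 155.3 and 198.3 in SCARKO pools, against 110.3, 173.5, 127.6, 143.6 and 131.2 in control pools, and control pools 2 and 4 lay inside the SCARKO range. The log2 fold change of 0.28 (SE 0.08) did not pass at a limma adjusted p of 0.086. Without pair 2 the limma adjusted p was 0.028, and without pair 1, 3, 4 or 5 it was 0.10 to 0.26. The other kept Pdgfc probe set gave 0.15 (limma adjusted p = 0.38). Fyn, a Src family kinase recruited to PDGF receptors, gave -0.22 (limma adjusted p = 0.12), and its other kept probe set gave -0.30 (limma adjusted p = 0.063). Without pair 2 the limma adjusted p of the first was 0.0094, and without pair 1, 3, 4 or 5 it was 0.19 to 0.34. Sos1, the close relative of Sos2, gave -0.03 (limma adjusted p = 0.91). The adaptor genes Grb2 and Shc1 gave -0.05 and 0.07 on their brighter and -0.17 and 0.30 on their dimmer probe sets, and none of these passed (limma adjusted p for the last was 0.091).

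**Figure D4:**
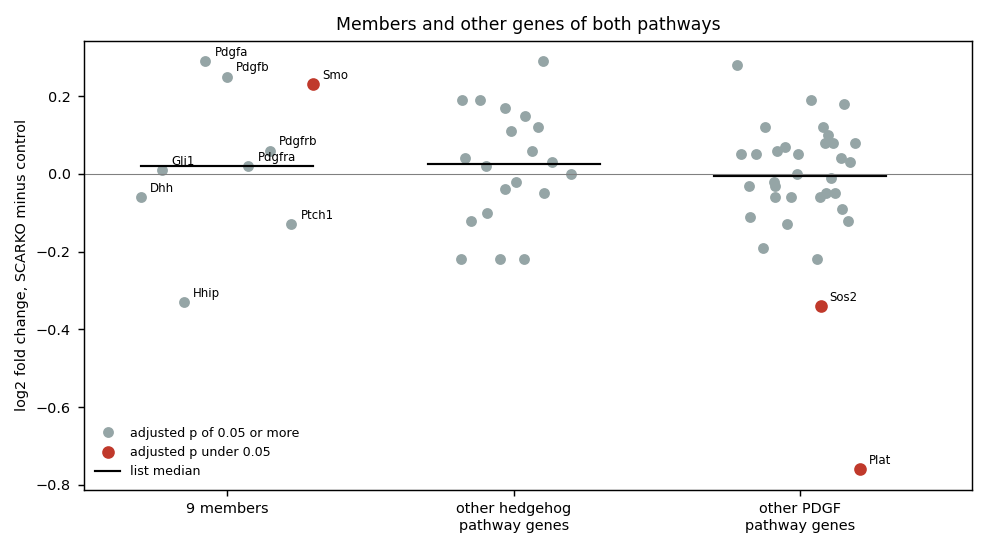
Log2 fold change, SCARKO minus control, of the 9 genes described, 20 other hedgehog pathway genes and 34 other genes of the PDGF system, each by its brightest kept probe set. Red points passed at an adjusted p under 0.05 (Smo at 0.23, Sos2 at -0.34, Plat at -0.76), grey points did not, and lines mark list medians of 0.02, 0.02 and -0.01.

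Markers of the cells that send and receive these signals are given beside them, and their part in the values above was not tested. Limma called 0 of 8 Leydig, 0 of 10 peritubular myoid, 0 of 8 interstitial progenitor and fibroblast, and 0 of 7 endothelial markers, against 5.69% of all genes. At an unadjusted p under 0.05 there were 2, 3, 2 and 1, against 21.7% of all genes. Medians in the same order were 0.0, -0.08, -0.03 and -0.05. Summed signals overlapped, at 1630.9 to 2186.9 in SCARKO and 1675.4 to 2034.3 in control for Leydig markers and 2940.4 to 3448.3 in SCARKO and 3287.3 to 3688.1 in control for myoid markers. Such sums of linear signals, here and below, follow mainly the brightest markers of a list, and changes of dim ones hardly move them. No kept marker had a signal of 0 in any pool.

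Of the 4 kept pericyte markers, 1 rose, against 2.17% of all genes, and all 4 had positive estimates. Mcam, an adhesion molecule of pericytes and endothelium, lay between 112.7 and 134.8 in SCARKO pools and between 90.0 and 122.3 in control pools, a log2 fold change of 0.26 (limma adjusted p = 0.044). That call ended without any 1 pair (0.056 to 0.16), without the pair block (0.14) and without the filter (0.12). Cspg4, the NG2 proteoglycan of pericytes, gave 0.25 and did not pass (limma adjusted p = 0.29). Rgs5 and Notch3 gave 0.05 and 0.15 (limma adjusted p = 0.80 and 0.50), and the filter left out Abcc9 and Kcnj8 as dim. Summed pericyte signals were 300.3 to 350.7 in SCARKO and 275.1 to 326.7 in control.

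Of the 13 Sertoli markers, the source of Dhh, 3 fell and 2 rose (median 0.02), against 3.52% of all genes called lower and 2.17% called higher. The tight junction gene Cldn11 fell by 0.68 and Nr0b1, the nuclear receptor DAX1, fell by 0.86, at limma adjusted p of 0.00029 and 0.00041. The other marker that fell was Gata1, by 0.50 (limma adjusted p = 0.0079). Fshr, the receptor of follicle-stimulating hormone, and Kitl, the ligand of the germ cell receptor Kit, rose by 0.42 and 0.24 (limma adjusted p = 0.026 and 0.015), each in 5 of 5 pairs. Without the filter all these calls ended (0.054 for Cldn11, 0.065 for Nr0b1, 0.11 for Gata1, 0.15 for Fshr and 0.13 for Kitl). The calls of the 3 that fell held when any 1 pair was left out (limma adjusted p of at most 0.030). Single pairs ended that of Fshr (0.089, 0.068 and 0.087 without pairs 1, 2 and 4) and of Kitl (0.052 and 0.070 without pairs 1 and 3). Summed Sertoli signals overlapped, at 8321.2 to 8781.0 in SCARKO and 8575.4 to 8745.0 in control.

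The genes whose pattern over the 10 pools lay nearest to each of 3 members were found by the root mean square difference of log2 signals, each gene centred on its own mean. For Smo these were Dgcr2 (0.036), the respiratory chain gene Ndufa6 (0.045) and Pmp22 (0.058), against a median of 0.188 over all genes. For Pdgfa they were Tmem160 (0.093), Prps2 (0.102) and Tsen34 (0.116), against 0.266. For Dhh they were the tropomyosin gene Tpm2 (0.102), Slc22a5 (0.105) and the spectrin gene Sptan1 (0.107), against 0.254. With 10 pools and 7973 genes, near patterns arise among unrelated genes, and these are descriptions of the pools. No correlation between ligands and targets is given, because the 10 pools come in 5 pairs.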

How the data were processed

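The deposited values were linear Affymetrix signal intensities, 1 per probe set and array. Per the submitters' processing notes, 8 arrays were processed in MAS5, with no tool named for pair 5 and no version or settings for any. Trimmed of 2% at each end, signals averaged 100 on all 10 arrays. The number of arrays limits precision.

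Genes came from the platform annotation, with symbols updated through gene identifiers to GRCm38.p6. Of 22626 probe sets without the 64 array controls, 20380 named 1 gene, 691 several and 1555 none. Values under 1 were set to 1 and log2 taken. Dim probe sets, the lowest 40% by mean, were left out (a mean log2 value under 4.27, a signal of 19.3), which kept 13576. The fit used limma 3.58.1 (R 4.3.3) with a pair block, an intensity trend and two-sided tests. Probe sets were adjusted together by Benjamini-Hochberg and called at an adjusted p under 0.05. Intervals are 95% intervals from this fit. Pairing follows the labels' protocol of littermate pools, given for pairs 1 to 4, and the numbers in the titles, and deviations of same-numbered pools correlated at 0.27, 0.19, 0.19, 0.11 and 0.39 in pairs 1 to 5, against a highest correlation with another number of -0.01, 0.08, 0.11, 0.11 and 0.01, so in pair 4 the 2 were equal.

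The members and lists were chosen with earlier results of these data known. Named are the 9 members, up to 6 called genes of each pathway list or else the 4 of smallest p, up to 2 genes of each marker list by smallest p, and the nearest patterns of Dhh, Pdgfa and called members. Gli2, Gli3, Shh, Ihh, Sos1, Grb2, Shc1, Gata1, Fshr, Kitl, Rgs5, Notch3, Abcc9 and Kcnj8 were named after their values were seen. Of the remaining marker lists, limma called 0 of 8 germ cell and 0 of 8 macrophage markers, against 5.69% of all genes. Those of smallest p were Sycp3 (log2 fold change -0.21) and Dnd1 (0.24) among germ cell and C1qa (0.17) and C1qc (0.25) among macrophage markers. In the described lists, the smallest p belonged to Hsd17b3 (0.50) and Akr1c14 (0.24) among Leydig, Mylk (-0.17) and Tpm1 (0.15) among myoid, Tcf21 (0.12) and Dcn (0.10) among interstitial, and Sox18 (0.19) and Cdh5 (-0.19) among endothelial markers, none of which passed on its brightest kept probe set. Other kept probe sets gave -0.29 and -0.22 for Mylk and 0.10 for Tpm1. The targeted gene is not reported here.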

Additional observations from a re-analysis of the deposited data

Results flagged for a closer look

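In the brighter Smo probe set, the SCARKO pool of pair 5 read 167.0 and stood apart from the other 4 SCARKO pools (144.0 to 148.5), with a gap to its neighbour of 0.792 of the group's range, against a critical value of 0.71. It was 1 of 28 groups of 5 pools checked, and chance flags about 1 in 20. Without pair 5 the log2 fold change was 0.21 and limma's adjusted p 0.16.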

How the results depend on the processing

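The number of members called was 1 with the main settings, with 16 added before log2, with the lowest 60% of probe sets left out (4 members tested) and after quantile normalization. Limma called 0 without the filter, without the intensity trend, with no pair (replicate) block, with groups from the descriptions, and without any 1 pair (0 to 0). Over the whole array, 704 probe sets were called with the main settings, 38 without the filter, 321 without the trend, 404 with no replicate block, 304 to 744 without 1 pair (426, 304 and 345 without pairs 1, 3 and 5) and 0 with groups from the descriptions, where 611 had an unadjusted p under 0.05. Of the other PDGF genes, 2 were called with the main settings, 0 without the filter and 2 to 4 without 1 pair, the 4 being without pair 2 (1 higher and 3 lower). The count for other hedgehog genes was 0 under every alternative except groups from the descriptions, where it was not computed. Of 147 member estimates under 11 alternatives, 133 kept direction and side of the threshold and 5 changed sign, all in Gli1 and Pdgfra: Gli1 was -0.01 after quantile normalization and -0.06 to 0.05 without 1 pair, and Pdgfra -0.01 to 0.06 (brighter) and -0.04 to 0.05 (dimmer). The cause was not tested. These 11 alternatives do not include groups from the descriptions, so member directions under that grouping are not covered. Precision was lowest in the 3 dim probe sets left out (SE 0.17 to 0.33 without the filter, against 0.05 to 0.14 in the 14 kept).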
